A study of Mus musculus with 18 samples.

Results

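The colony-stimulating factors and their receptors were followed across LPS-treated mouse macrophages in which the small membrane protein gene Smim30 was mutated, overexpressed or knocked down. They comprised 7 genes of the 55401 in the count tables, taken by symbol: the ligand genes Csf1, Csf2 and Csf3 and the receptor genes Csf1r, Csf2ra, Csf2rb and Csf3r. RNA sequencing gave 18 libraries in 6 groups of 3, and LPS (lipopolysaccharide, which comes from the outer membrane of bacteria and triggers inflammatory genes) was given to all of them at 5 ng/ml for 6 h. All samples carry the strain label C57BL/6J. Peritoneal macrophages came from mice with a mutated Smim30 gene (Mut) and from wild-type mice (WT). Mut macrophages were also given a Smim30 overexpression adenovirus (Mut AdSmim30) or a control adenovirus (Mut AdCtrl) 6 h after seeding, for 24 h before LPS, so that both of these groups carried the mutation as well. IC-21, an established line of transformed mouse peritoneal macrophages, was transfected for 24 h with Smim30 siRNA (siSmim30) or with control siRNA (siCtrl). The kind of mutation, the age of the mice and any pooling of mice were not given in the sources used here. The samples are called triplicates, with no word on whether each came from its own mouse or well, so p-values reflect the spread among these libraries alone, which may be technical.

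Colony-stimulating factors are secreted proteins that control the survival, growth and activation of myeloid cells. CSF1 (M-CSF) keeps macrophages alive through CSF1R, a receptor tyrosine kinase. CSF2 (GM-CSF) binds an alpha chain, encoded by Csf2ra, and signals with the common beta chain, encoded by Csf2rb, through the kinase JAK2 and the transcription factor STAT5. CSF3 (G-CSF) acts through CSF3R, best known for driving neutrophil production. Macrophages and stromal cells such as fibroblasts can make these factors, and bacterial products raise them.

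The 3 ligand genes were set apart from most of their receptors by a feature of their messages, the AU-rich element, which is shown because Csf2 and Csf3, the 2 of the 7 genes with the largest fold changes in siSmim30 against siCtrl, carry it most densely. In Mut against WT the fold change of Csf3 was small and did not pass the test. In siCtrl against WT, Csf1 rose most of the 3, with a log2 fold change of 3.23, against 2.96 for Csf2 and 1.30 for Csf3. The pentamer ATTTA in the 3′ untranslated region, as DNA, is the core of that element and is bound by the decay factor tristetraprolin (Zfp36). The 30 bases of the 3′ untranslated region with the most pentamers are given 5′ to 3′ on the sense strand, with each pentamer in capitals, from GENCODE M21 transcripts in GRCm38.
Csf1, chr3:107741109-107741138, minus strand: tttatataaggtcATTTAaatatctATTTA
Csf2, chr11:54247329-54247358, minus strand: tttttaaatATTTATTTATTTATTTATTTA
Csf3, chr11:98702984-98703013, plus strand: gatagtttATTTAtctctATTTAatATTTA
The Csf2 window held 5 overlapping pentamers, which 0.262% of 21747 genes with an examined 3′ untranslated region matched or exceeded. The Csf3 window held 3, a number reached by 2.46% of genes. The Csf1 window held 2, reached by 18% of genes. No pentamer was found in the 3′ untranslated region of Csf2ra, Csf2rb or Csf3r, while Csf1r had 3 of them spread over 1669 bases. A match of letters is a description and not a measured binding site, and a link between the element and the fold changes was not tested.

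Libraries held 6855245 to 13456857 assigned read pairs, and 3 counts, taken as the detection floor, were worth 0.223 to 0.438 CPM, the count scaled to the library total. This floor covers counting error only. Smim30, listed under the clone name 2610001J05Rik, was at 42.3 to 52.9 CPM in Mut against 44.3 to 50.9 CPM in WT, at 51.6 to 55.1 CPM in Mut AdSmim30 against 42.1 to 45.9 CPM in Mut AdCtrl, and at 8.83 to 12.03 CPM in siSmim30 against 20.02 to 22.5 CPM in siCtrl. The level therefore did not separate Mut from WT, and these counts cover the whole gene and do not show the mutated bases. Macrophage markers summed to 2826 to 11755 CPM over 8 genes, Csf1r among them, with none at 0 in any group. Gata6 and Timd4, markers of large peritoneal macrophages, were at 0 in IC-21. Ribosomal RNA genes took 0.400 to 1.03% of counts in Mut and 1.74 to 2.49% in WT, and leaving these genes out changed the call of no colony-stimulating factor or receptor gene. In such bulk samples, fewer cells of a type and less RNA per cell cannot be told apart.

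The ligand genes were far below their receptors in peritoneal macrophages, and Csf1 was above its receptor in IC-21 cells. Levels of different genes are compared per length, in RPKM, the CPM divided by the exonic length in kilobases. Csf1 (ENSMUSG00000014599.10; chr3:107741048-107760469, minus strand, GRCm38) averaged 16.2 ± 1.27 RPKM in Mut and 11.9 ± 0.963 RPKM in WT (SD, n = 3 each). In IC-21 it averaged 196 ± 3.18 RPKM with siSmim30 and 182 ± 11.7 RPKM with siCtrl, the highest level of the 7 genes there. Csf2 (ENSMUSG00000018916.5; chr11:54247271-54249667, minus strand) was the lowest of them in Mut, at 2.50 ± 0.859 RPKM, and in WT, at 0.658 ± 0.186 RPKM. It reached 16.04 ± 2.41 RPKM with siSmim30 and 8.39 ± 1.30 RPKM with siCtrl. Csf3 (ENSMUSG00000038067.2; chr11:98701263-98703629, plus strand) averaged 4.26 ± 1.44 RPKM in Mut and 3.89 ± 0.685 RPKM in WT. With siSmim30 it averaged 34.8 ± 5.85 RPKM, and with siCtrl 15.5 ± 3.13 RPKM.

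**Figure D1:**
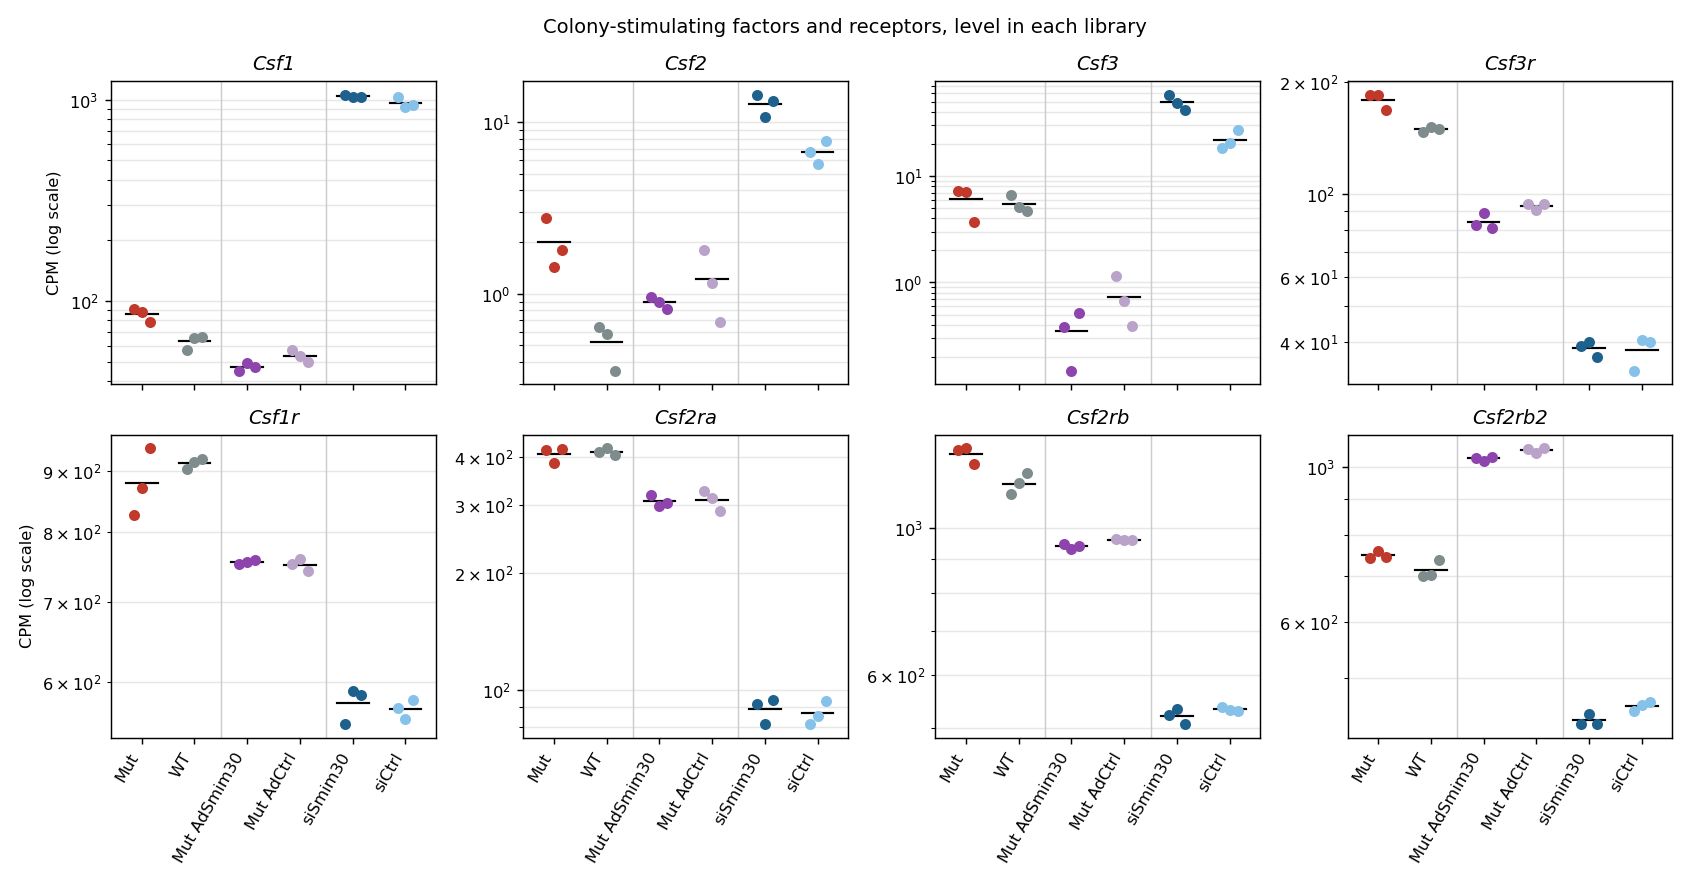
CPM on a log axis (a different range in each panel) of the 7 genes and of Csf2rb2, a near copy of Csf2rb, in each of 18 libraries; points are libraries and bars are group means. Csf1, Csf2 and Csf3 were highest in IC-21 cells and the receptor genes were highest in peritoneal macrophages, where Csf2rb2 was higher in both virus groups than in Mut and in WT. Csf2 was higher in both virus groups than in WT but not than in Mut.

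Receptor levels ran in a similar order in all peritoneal groups. Csf2rb (ENSMUSG00000071713.6; chr15:78325752-78353847, plus strand) averaged 178 ± 5.06 RPKM in Mut and 161 ± 5.89 RPKM in WT. Csf1r (ENSMUSG00000024621.16; chr18:61100598-61132149, plus strand) averaged 152 ± 9.83 RPKM in Mut and 158 ± 1.66 RPKM in WT. Csf2ra (ENSMUSG00000059326.7; chr19:61223957-61228429, minus strand) averaged 142 ± 6.63 RPKM in Mut and 143 ± 2.93 RPKM in WT. Csf3r (ENSMUSG00000028859.14; chr4:126024550-126044440, plus strand) was the lowest receptor gene in both, at 49.7 ± 2.65 RPKM in Mut and 41.4 ± 0.681 RPKM in WT. The ratio of Csf1 to Csf1r per length was 0.0909 to 0.120 in Mut, 0.0693 to 0.0789 in WT, 1.91 to 2.09 with siSmim30 and 1.77 to 1.98 with siCtrl. The ratio of Csf3 to Csf3r was 2.90 to 3.78 with siSmim30 and 1.28 to 1.72 with siCtrl, against 0.0558 to 0.101 in Mut and 0.0810 to 0.114 in WT. Csf2 stayed below Csf2ra in every library, with ratios of 0.471 to 0.566 with siSmim30 and 0.238 to 0.298 with siCtrl. These are ratios of RNA and not of protein or of bound receptor.

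The order of the 6 groups followed the cells more than Smim30. For Csf1, in CPM, the order from high to low was siSmim30, siCtrl, Mut, WT, Mut AdCtrl and Mut AdSmim30, and the only neighbours whose libraries overlapped were the 2 IC-21 groups. For Csf2, Mut overlapped Mut AdCtrl, and Mut AdCtrl overlapped Mut AdSmim30, while WT lay under all other groups. For Csf3, Mut overlapped WT, and Mut AdCtrl overlapped Mut AdSmim30. For Csf1r and Csf2ra, Mut and WT were highest, the 2 virus groups of Mut cells next and the 2 IC-21 groups lowest. The libraries of the 2 groups in each pair overlapped. For Csf3r, the neighbours in the order Mut, WT, Mut AdCtrl and Mut AdSmim30 did not overlap, and the 2 IC-21 groups did.

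Mutation of Smim30 was compared with wild type in peritoneal macrophages to ask whether the factors and receptors depend on it. Csf1, Csf2 and Csf3r rose in Mut, 1.34-fold, 3.72-fold and 1.19-fold. Csf3, Csf1r, Csf2ra and Csf2rb did not pass the test. Thus 3 of 7 genes were called, all higher, where 6.3% of the 12500 genes tested were called, 3.68% higher and 2.62% lower. The median log2 fold change was 0.14 over the 7 genes and -0.01 over all genes tested. The 7 genes were chosen with earlier results of these data known, so their share of calls is a description and not a test.

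Csf1 was at 91.1, 87.8 and 78.1 CPM in Mut against 57.2, 65.5 and 66.4 CPM in WT. All 3 Mut libraries lay above all 3 WT libraries. The log2 fold change was 0.43 (SE 0.072, edgeR quasi-likelihood adjusted p = 0.000216). Csf2 was at 2.77, 1.44 and 1.80 CPM in Mut against 0.637, 0.586 and 0.357 CPM in WT. These levels came from 22, 13 and 22 read pairs in Mut and from 6, 5 and 4 read pairs in WT, so the groups did not overlap but the WT level was only a little over the detection floor. The log2 fold change was 1.90 (SE 0.44, 95% interval 0.99 to 2.80, edgeR adjusted p = 0.00634). That call was lost without WT replicate 3 (log2 fold change 1.66, adjusted p = 0.0602) and without Mut replicate 1 (1.63, adjusted p = 0.0588), and DESeq2 gave Csf2 no adjusted p. Csf3r was at 185, 185 and 168 CPM in Mut against 147, 152 and 149 CPM in WT, again without overlap. Its log2 fold change was 0.25 (SE 0.053, edgeR adjusted p = 0.00239).

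The other genes did not pass between Mut and WT, and their intervals limit the size of a difference without excluding one. Csf3 was at 7.30, 7.09 and 3.67 CPM in Mut against 6.58, 5.16 and 4.73 CPM in WT, with overlapping groups and a log2 fold change of 0.09 (95% interval -0.39 to 0.57, edgeR adjusted p = 0.901). The interval of Csf1r ran from -0.16 to 0.03 on the log2 scale and that of Csf2ra from -0.13 to 0.07. Csf2rb was at 1311, 1320 and 1252 CPM in Mut against 1124, 1170 and 1210 CPM in WT. All Mut libraries were higher, but the log2 fold change of 0.14 did not pass (95% interval 0.05 to 0.23, edgeR adjusted p = 0.0667). It passed with library totals alone (adjusted p = 0.0316), with limma-voom (0.0424), in a fit of all 18 libraries (0.00731), without WT replicate 3 (0.0464) and without Mut replicate 3 (0.0359).

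Markers of other cells were summed in the same libraries. Their calls stand beside 6.3% of all genes tested called. In lists this small, 0 calls does not show that a kind of cell was unchanged. Fibroblast and mesothelial markers overlapped, at 268 to 296 CPM in Mut and 275 to 302 CPM in WT over 12 genes, and 0 of the 8 tested were called. Dendritic cell markers were at 8.68 to 12.97 CPM in Mut and 5.72 to 6.69 CPM in WT over 6 genes. Most of that difference was Batf3, a transcription factor gene, at 6.44 ± 1.08 CPM in Mut and 2.33 ± 0.332 CPM in WT (log2 fold change 1.47, edgeR adjusted p = 7.03e-05), while Zbtb46, the other gene tested, had a log2 fold change of 0.02 (adjusted p = 0.989). The sums of 8 macrophage markers, Csf1r among them, did not overlap, at 9955 to 10458 CPM in Mut and 11036 to 11755 CPM in WT. Among them Lyz2 (lysozyme) fell by 0.29 on the log2 scale, while Cd14, a co-receptor of LPS, and Fcgr1, an antibody receptor, rose by 0.38 and 1.21. Markers of large peritoneal macrophages were at 794 to 856 CPM in Mut and 746 to 792 CPM in WT, with 0 of 4 tested genes called. B cell markers were at 49.9 to 56.6 CPM in Mut and 72.3 to 78.4 CPM in WT, nearly all of it Cd22, which fell by 0.51. Mast cell markers were at 8.05 to 9.47 CPM in Mut and 6.69 to 7.85 CPM in WT, with 0 of 4 tested genes called. Neutrophil markers overlapped, at 5.99 to 9.56 CPM in Mut and 8.07 to 10.6 CPM in WT over 8 genes. S100a8 made up most of that and did not pass (log2 fold change -0.32, edgeR adjusted p = 0.34), Camp had 2 to 8 read pairs in a library, and Elane, Ly6g, Retnlg and S100a9 were at 0 in both groups. T and NK cell markers stayed at or below 0.425 CPM. The part of these cells in the differences of the colony-stimulating factor and receptor genes was not tested.

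**Figure D2:**
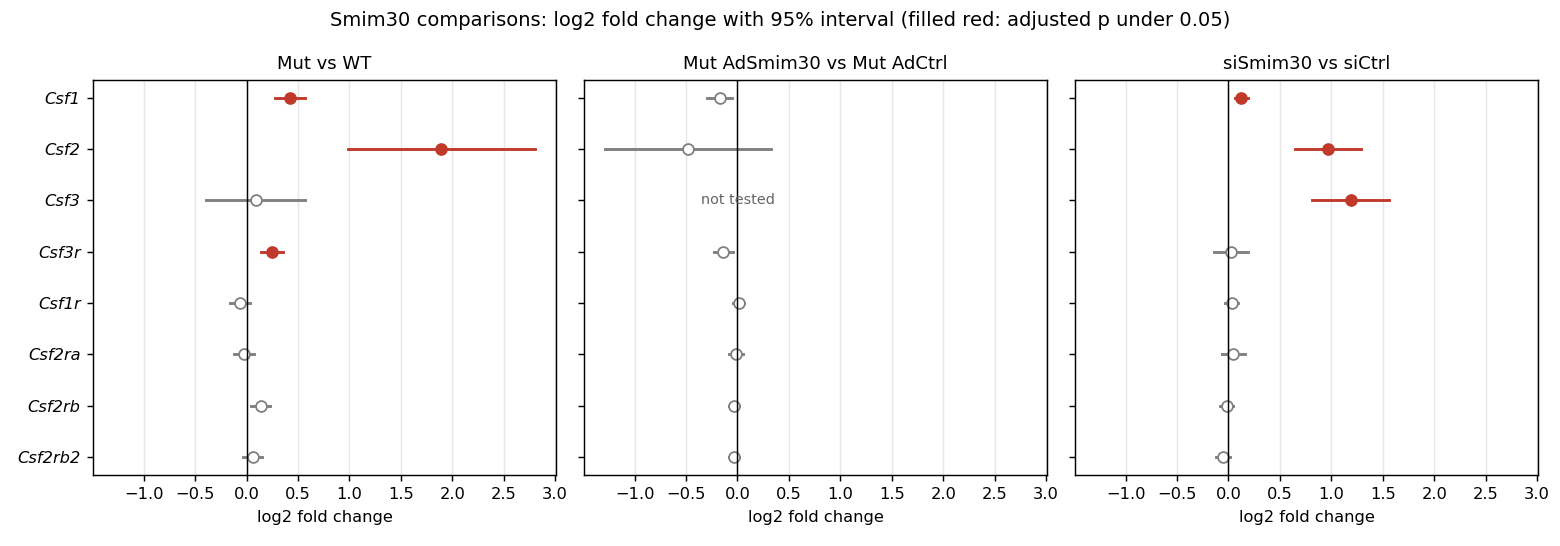
Log2 fold change (x axis) of the 7 genes and of Csf2rb2 in the 3 comparisons of Smim30, with 95% intervals; filled red symbols have an edgeR adjusted p under 0.05. Csf1, Csf2 and Csf3r were called in Mut against WT, Csf1, Csf2 and Csf3 in siSmim30 against siCtrl, and none of the 6 genes tested with the overexpression virus.

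Genes downstream of the receptors were read as lists. These were chosen with earlier results of these data known, so their shares of called genes are descriptions and not tests. All libraries had LPS, and whether signalling by these receptors had a part in the values was not tested. Of 15 genes of JAK-STAT signalling by the CSF2 and CSF3 receptors, 8 rose in Mut, 0 fell and 7 did not pass, where 3.68% of all genes tested rose and 2.62% fell. The median log2 fold change was 0.25, against -0.01 over all genes. Socs2, an inhibitor of cytokine receptor signalling, averaged 7.04 ± 1.05 CPM in Mut and 2.69 ± 0.553 CPM in WT (SD, n = 3 each; log2 fold change 1.38, edgeR adjusted p = 0.000124). Socs1, of the same family of inhibitors, rose by 0.76 on the log2 scale (adjusted p = 0.00447) and Socs3 by 0.57 (adjusted p = 2.81e-07). Osm, the gene of the cytokine oncostatin M, a known target of STAT5, averaged 18.8 ± 1.47 CPM in Mut and 12.1 ± 2.38 CPM in WT (log2 fold change 0.62, edgeR adjusted p = 0.00299).

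Of 12 GM-CSF-responsive genes of macrophages, Csf2rb2 among them, 11 were tested. Of these, 6 rose and 0 fell, beside the same 3.68% and 2.62% of all genes, with a median log2 fold change of 0.29. Ccl22, a chemokine for T cells, averaged 15.7 ± 2.99 CPM in Mut and 6.14 ± 0.880 CPM in WT (log2 fold change 1.32, edgeR adjusted p = 1.71e-06). Inhba, which encodes a subunit of activin A, averaged 362 ± 73.1 CPM in Mut and 165 ± 2.10 CPM in WT (log2 fold change 1.12, adjusted p = 0.0406). Flt1, a receptor of vascular endothelial growth factor, rose by 1.02 on the log2 scale, and Dcstamp, which serves in the fusion of macrophages and osteoclasts, by 0.80 (adjusted p = 0.00132 and 0.000146). Signalling parts of the CSF1 receptor moved little. Of 21 such genes 0 rose and 3 fell, where 2.62% of all genes fell, namely the lipid phosphatase gene Inpp5d, the kinase gene Fgr and the ubiquitin ligase gene Cbl, which acts on activated CSF1R (log2 fold changes -0.28, -0.27 and -0.21). Of 12 transcription factor genes of macrophage fate 3 rose, where 3.68% of all genes rose, namely Mitf, Tfec and Egr2, by 0.24 to 0.26. Of 14 factors of AU-rich messages 1 was called, a share near the 6.3% of all genes called. This was Zfp36, at 147 ± 7.20 CPM in Mut and 119 ± 8.49 CPM in WT (log2 fold change 0.29, edgeR adjusted p = 0.0016). None of 6 shedding genes, such as Adam17, was called by edgeR, DESeq2 or limma-voom, and 1 had an unadjusted p under 0.05.

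The overexpression virus was compared with the control virus in Mut macrophages to ask how the genes respond to it. Smim30 RNA was not lower in Mut than in WT, and averaged 53.1 ± 1.86 CPM in Mut AdSmim30 and 43.9 ± 1.86 CPM in Mut AdCtrl (SD, n = 3 each). None of the 6 genes tested was called by edgeR, DESeq2 or limma-voom, where 1.43% of 12701 genes tested were called, 0.583% higher and 0.842% lower. Of the 6, 2 had an unadjusted p under 0.05, Csf1 (0.00656) and Csf3r (0.00528), and both were lower with the overexpression virus. Csf3 fell below the filter on low counts and was not tested. The median log2 fold change was -0.08 over the 6 genes and 0.00 over all genes tested.

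Csf1 was at 45.1, 49.3 and 46.9 CPM in Mut AdSmim30 against 57.1, 53.0 and 49.7 CPM in Mut AdCtrl. The libraries did not overlap, and the log2 fold change was -0.17 (95% interval -0.30 to -0.05, edgeR adjusted p = 0.184). Without Mut AdCtrl replicate 3 it was -0.22 with an adjusted p of 0.0324. Csf3r was at 82.4, 88.9 and 81.1 CPM in Mut AdSmim30 against 93.7, 90.6 and 94.2 CPM in Mut AdCtrl, also without overlap (log2 fold change -0.14, 95% interval -0.23 to -0.04, edgeR adjusted p = 0.162). Csf2 was at 0.962, 0.894 and 0.817 CPM in Mut AdSmim30 against 1.79, 1.16 and 0.688 CPM in Mut AdCtrl, and the Mut AdCtrl libraries spread above and below those of Mut AdSmim30. Its interval, from -1.28 to 0.33 on the log2 scale, covered both a large fall and a small rise. Csf3 had 4, 2 and 7 read pairs in Mut AdSmim30 and 14, 7 and 4 read pairs in Mut AdCtrl, which is at or near the detection floor. The intervals of Csf1r (-0.04 to 0.06), Csf2ra (-0.08 to 0.06) and Csf2rb (-0.08 to 0.02) were narrow on the log2 scale.

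Downstream lists and markers stand beside 1.43% of all genes tested called with the overexpression virus, 0.583% higher and 0.842% lower. Of 14 JAK-STAT genes tested, 0 were called by edgeR, DESeq2 or limma-voom and 2 had an unadjusted p under 0.05, with a median log2 fold change of -0.04 against 0.00 over all genes. Of 11 GM-CSF-responsive genes, the integrin gene Itgax rose (936 ± 17.2 CPM in Mut AdSmim30, 822 ± 35.1 CPM in Mut AdCtrl, edgeR adjusted p = 1.8e-06) and the lipid carrier gene Fabp4 fell by 0.14 on the log2 scale (adjusted p = 0.0228). Among the other lists, Pik3r1 rose by 0.18, while Cebpb, Zfp36l2 and Rhbdf2 fell by 0.20, 0.13 and 0.15 on the log2 scale. With DESeq2 the calls of Fabp4, Pik3r1 and Zfp36l2 were lost. Of 8 macrophage markers Itgam, an integrin gene, and Adgre1, which encodes F4/80, rose by 0.27 and 0.15 (edgeR adjusted p = 4.6e-06 and 0.00153), and the 8 summed to 9783 to 9880 CPM in Mut AdSmim30 and 9960 to 10077 CPM in Mut AdCtrl. Timp3, an inhibitor of the shedding protease ADAM17, averaged 0.929 ± 0.403 CPM in Mut AdSmim30 and 2.77 ± 0.318 CPM in Mut AdCtrl (log2 fold change -1.52, edgeR adjusted p = 0.00337). Fibroblast and mesothelial markers fell in the same comparison, 7 of 8 tested, with a median log2 fold change of -1.13. Summed over 12 genes they were at 52.1 to 59.7 CPM in Mut AdSmim30, with Krt19 and Msln at 0, and at 95.5 to 116 CPM in Mut AdCtrl. Their part in the values of Csf1 and Timp3 was not tested.

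Knockdown of Smim30 was compared with control siRNA in IC-21 cells. All 3 ligand genes rose with siSmim30, Csf3 2.28-fold, Csf2 1.95-fold and Csf1 1.09-fold. None of the 4 receptor genes was called by edgeR, DESeq2 or limma-voom, and 0 of them had an unadjusted p under 0.05. Across the transcriptome 3.48% of 13576 genes tested were called, 2.39% higher and 1.09% lower. Fibroblast and mesothelial markers summed to 0.341 to 0.955 CPM with siSmim30 and 0.250 to 0.347 CPM with siCtrl, with Pdgfra, Dcn and Sparc at 0 in both groups. B cell markers summed to 48.5 to 55.9 CPM with siSmim30 and 57.0 to 62.1 CPM with siCtrl. Neutrophil markers summed to 3.47 to 4.18 CPM with siSmim30 and 4.38 to 5.67 CPM with siCtrl. Dendritic cell markers summed to at most 9.10 CPM with siSmim30 and at least 9.19 CPM with siCtrl, so that the groups of these 3 lists did not overlap. In these lists 0 genes were called by edgeR, DESeq2 or limma-voom and 1 had an unadjusted p under 0.05, and their part in the results was not tested. Of 8 macrophage markers, only Cd68 was called, and it fell by 0.10 on the log2 scale (edgeR adjusted p = 0.0465). With limma-voom 1 macrophage marker was called lower, and with DESeq2 0 were called.

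Csf2 was at 14.4, 10.7 and 13.4 CPM with siSmim30 against 6.71, 5.67 and 7.75 CPM with siCtrl. All siSmim30 libraries lay above all siCtrl libraries, and the counts behind them, 94 to 121 and 46 to 68 read pairs, were higher than in peritoneal cells. The log2 fold change was 0.97 (SE 0.16, edgeR adjusted p = 3.16e-05), although DESeq2 gave no adjusted p. Csf3 was at 57.9, 48.4 and 41.4 CPM with siSmim30 against 18.4, 20.4 and 26.8 CPM with siCtrl, likewise without overlap. Its log2 fold change was 1.19 (SE 0.16, edgeR adjusted p = 0.00518). Without siSmim30 replicate 2 the call was lost (adjusted p = 0.0506). Csf1 was at 1056, 1028 and 1026 CPM with siSmim30 against 1034, 918 and 940 CPM with siCtrl, so that siCtrl replicate 1 lay within the siSmim30 libraries. The log2 fold change of 0.12 (SE 0.032, edgeR adjusted p = 0.0162) was lost in 6 of 16 alternative fits. These were the fit with library totals alone (adjusted p = 0.0517), that of all 18 libraries (0.196), and those without siCtrl replicate 2 (0.236), siCtrl replicate 3 (0.084), siSmim30 replicate 1 (0.119) and siSmim30 replicate 2 (0.0547).

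The receptor genes gave narrow intervals on the log2 scale with siSmim30. They ran from -0.03 to 0.10 for Csf1r, from -0.07 to 0.16 for Csf2ra, from -0.08 to 0.05 for Csf2rb and from -0.14 to 0.19 for Csf3r. Csf1r was at 553, 590 and 586 CPM with siSmim30 against 571, 559 and 579 CPM with siCtrl, with overlapping groups. Of 14 JAK-STAT genes tested, 5 rose with siSmim30 and 0 fell, where 2.39% of all genes tested rose and 1.09% fell. The median log2 fold change was 0.10. Socs3 averaged 134 ± 2.57 CPM with siSmim30 and 93.3 ± 11.8 CPM with siCtrl (log2 fold change 0.52, edgeR adjusted p = 9.53e-07). Cish, an inhibitor induced by STAT5, rose by 0.45, Osm by 0.36 and the survival gene Bcl2l1 by 0.21 on the log2 scale (adjusted p = 0.00551, 0.000561 and 0.015). Of 8 GM-CSF-responsive genes tested only Cd74, the invariant chain of antigen presentation, was called, and it rose by 0.27. Of 14 factors of AU-rich messages, Zfp36 and the endonuclease gene Zc3h12a rose, by 0.32 and 0.23. Of 5 shedding genes tested, the protease genes Furin and Adam17 rose, by 0.33 and 0.17. ADAM17 is known to release CSF1R from the cell surface. Mitf and Ets2 rose by 0.22 and 0.15 among 12 transcription factor genes, and Pik3cg and Cbl by 0.28 and 0.11 among 20 signalling genes of the CSF1 receptor.

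**Figure D3:**
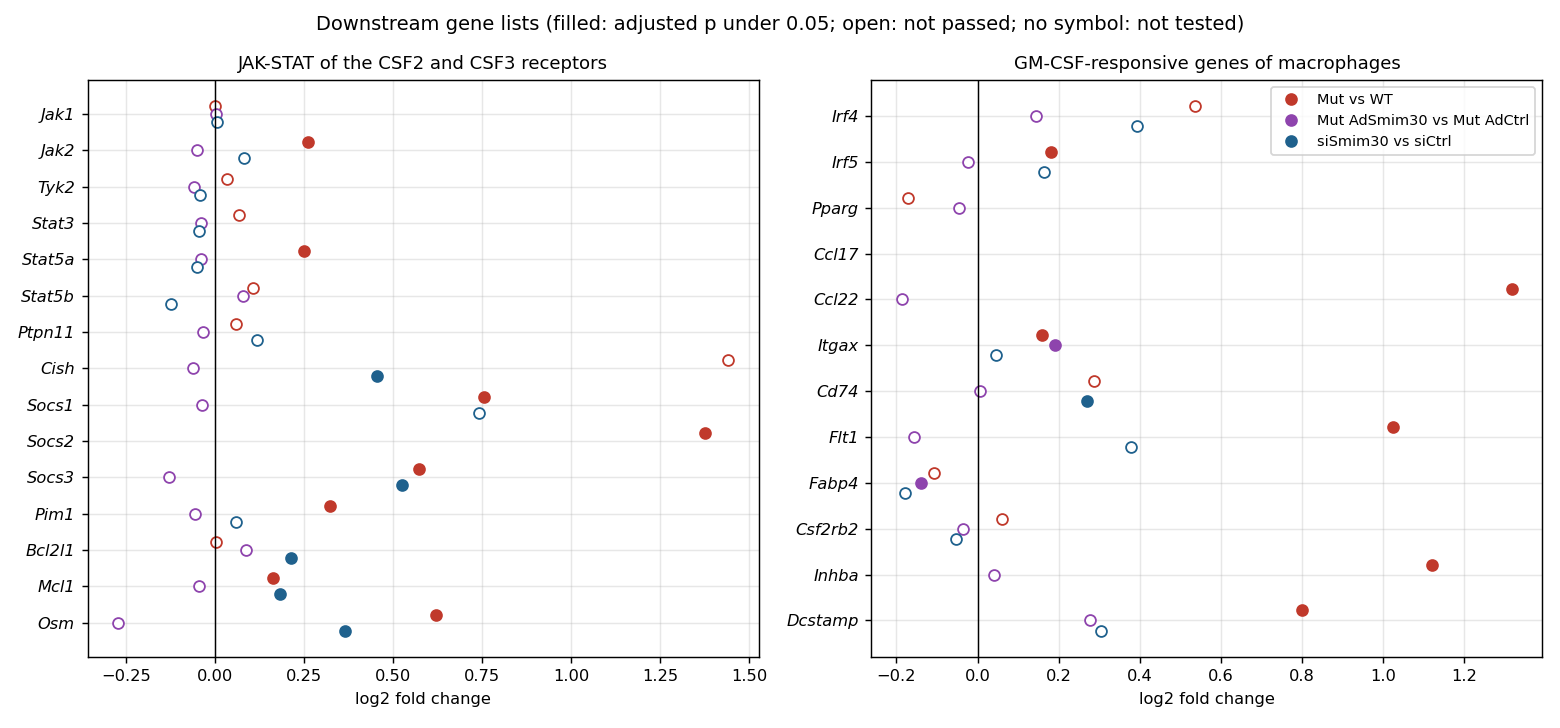
Log2 fold change (x axis) of JAK-STAT genes of the CSF2 and CSF3 receptors (left) and of GM-CSF-responsive genes (right) with the Smim30 mutation, the overexpression virus and the siRNA, each against its control; filled symbols have an edgeR adjusted p under 0.05. In the left panel 8 genes are filled for Mut against WT, 5 for siSmim30 against siCtrl and 0 for the overexpression virus, and all filled symbols there lie to the right of 0.

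Whether the effects of the mutation and of the knockdown differed was tested with interaction terms over 12 libraries. Csf1 was the only one of the 7 genes called, where 2.51% of 14804 genes tested were called. Its log2 fold change was 0.30 larger in Mut against WT than in siSmim30 against siCtrl (95% interval 0.14 to 0.46, edgeR adjusted p = 0.0272). The call was lost with limma-voom (adjusted p = 0.0675), without WT replicate 1, Mut replicate 1 or Mut replicate 2, without siCtrl replicate 1 or 3, and without any 1 siSmim30 library, with adjusted p-values of 0.0563 to 0.14 in these libraries' absence. For Csf3 the difference was -1.11 (95% interval -1.87 to -0.35, adjusted p = 0.144), and it passed without siCtrl replicate 3 (adjusted p = 0.0357) and with no filter on low counts (4.17e-05). For Csf2 it was 0.94 (95% interval 0.02 to 1.85, adjusted p = 0.354). For Csf3r it was 0.23 (95% interval 0.05 to 0.41, edgeR adjusted p = 0.199). For Csf2rb it was 0.16 (95% interval 0.03 to 0.28, edgeR adjusted p = 0.218). Of the 7 genes, 5 had an unadjusted p under 0.05 in edgeR. The kind of cells and the kind of loss cannot be told apart in this comparison.

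The sum of the mutation effect and the virus effect is 0 where the virus reverses the mutation. It was called for none of the 7 genes by edgeR, DESeq2 or limma-voom, although DESeq2 gave Csf2 no adjusted p. Of the 7 genes, 3 had an unadjusted p under 0.05. Of 13422 genes tested 5.23% were called. The sum was 0.25 for Csf1 (95% interval 0.06 to 0.45, edgeR adjusted p = 0.138) and 1.43 for Csf2 (95% interval 0.17 to 2.68, adjusted p = 0.209). Without Mut replicate 3 the sum for Csf1 was 0.32 with an adjusted p of 0.0301. For Csf3r it was 0.12 (95% interval -0.03 to 0.26, adjusted p = 0.421). A sum that missed the threshold does not show that the virus reversed the mutation.

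Mut macrophages with control virus were set against Mut macrophages without virus to describe the levels over culture. Virus, culture time and the part of the experiment differ together and cannot be told apart, and the Mut libraries are also those of the comparison with WT. All genes but Csf2 fell with the control virus, and Csf3 fell most. Of 12798 genes tested 53.6% were called, 27.1% higher and 26.5% lower, so the 6 calls of 7, all lower, stand beside a large background. Csf3 was at 1.14, 0.677 and 0.393 CPM in Mut AdCtrl against 7.30, 7.09 and 3.67 CPM in Mut. The Mut AdCtrl levels came from 14, 7 and 4 read pairs, near the detection floor. The groups were far apart, with a log2 fold change of -2.97 (SE 0.35, edgeR adjusted p = 6.09e-08). Csf3r was at 93.7, 90.6 and 94.2 CPM in Mut AdCtrl against 185, 185 and 168 CPM in Mut (log2 fold change -0.98, adjusted p = 1.33e-16). Csf1 fell by 0.71, Csf2ra by 0.43 and Csf1r by 0.26 on the log2 scale. Csf2 had a log2 fold change of -0.69 (95% interval -1.45 to 0.07, adjusted p = 0.118), and without Mut AdCtrl replicate 1 it was -1.11 (adjusted p = 0.0419).

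Of 15 JAK-STAT genes, 3 rose with the control virus, 11 fell and 1 did not pass, where 27.1% of all genes rose and 26.5% fell. Socs1 was at 2.56 ± 0.397 CPM in Mut AdCtrl and 25.6 ± 4.68 CPM in Mut (log2 fold change -3.32, edgeR adjusted p = 3.4e-16), and Socs2, Cish and Jak2 also fell. Of 11 GM-CSF-responsive genes, 4 rose and 6 fell. Pparg, a nuclear receptor induced by GM-CSF in alveolar macrophages, was at 84.1 ± 3.07 CPM in Mut AdCtrl and 17.6 ± 1.44 CPM in Mut (log2 fold change 2.22, adjusted p = 3.23e-21), while Inhba fell by 3.95 on the log2 scale. Fibroblast and mesothelial markers summed to 95.5 to 116 CPM in Mut AdCtrl and 268 to 296 CPM in Mut, and all 8 tested fell, with a median log2 fold change of -1.21. Mast cell markers were at 3.58 to 5.12 CPM in Mut AdCtrl and 8.05 to 9.47 CPM in Mut, and neutrophil markers at 2.80 to 4.48 CPM in Mut AdCtrl and 5.99 to 9.56 CPM in Mut. Dendritic cell markers were at 3.96 to 4.92 CPM in Mut AdCtrl and 8.68 to 12.97 CPM in Mut, and B cell markers at 82.8 to 94.5 CPM in Mut AdCtrl and 49.9 to 56.6 CPM in Mut. The part of these cells in the fall of Csf1 and Csf3 was not tested.

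Csf2rb and its near copy Csf2rb2 moved in opposite directions in that comparison. Csf2rb2 (ENSMUSG00000071714.7; chr15:78282507-78305721, minus strand) encodes a second beta chain of mice that serves the receptor of interleukin 3. The coding sequences of the pair are 95.2% identical over 2631 aligned bases, with an identical run of up to 242 bases. Pairs of reads that lie wholly in shared sequence can be assigned to neither or to the wrong copy, and 6.96% of all 100-base windows of the Csf2rb transcript also occur in Csf2rb2. The stretch shown makes plain which reads can tell the copies apart. It was picked as the 90 aligned coding bases without gaps that hold the most differences, 16, and is not typical of the pair. It is given 5′ to 3′ on the sense strand from GENCODE M21 transcripts in GRCm38, with differing bases in capitals.
Csf2rb, coding bases 308 to 397, plus strand: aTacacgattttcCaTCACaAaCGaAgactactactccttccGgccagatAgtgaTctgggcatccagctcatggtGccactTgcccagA
Csf2rb2, coding bases 311 to 400, minus strand: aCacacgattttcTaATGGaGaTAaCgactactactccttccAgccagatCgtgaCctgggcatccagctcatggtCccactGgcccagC

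Csf2rb was at 963, 960 and 962 CPM in Mut AdCtrl against 1311, 1320 and 1252 CPM in Mut, and fell by 0.46 on the log2 scale (SE 0.036, edgeR adjusted p = 2.18e-12). Csf2rb2 was at 1063, 1049 and 1065 CPM in Mut AdCtrl against 741, 759 and 744 CPM in Mut, and rose by 0.47 (SE 0.036, adjusted p = 1.37e-12). Neither gene's groups overlapped. The share of Csf2rb2 in the counts of both copies was 52.4 ± 0.180% in Mut AdCtrl and 36.6 ± 0.591% in Mut (SD, n = 3 each). The log2 ratio of Csf2rb2 to Csf2rb differed by 0.93 between these groups, with a two-sided exact permutation p of 0.1, the smallest that 3 libraries against 3 allow. Counted as 1 gene, a setting chosen after the data were seen, the pair had a log2 fold change of -0.05 and was not called (edgeR adjusted p = 0.229), at 2021 ± 9.96 CPM in Mut AdCtrl and 2042 ± 42.0 CPM in Mut. With the overexpression virus the share was 52.3 ± 0.0904%. In IC-21 it was 45.5 ± 0.354% with siSmim30 and 46.1 ± 0.569% with siCtrl. Mut, at 36.1 to 37.3%, and WT, at 37.5 to 38.3%, were close, and the log2 ratio was 0.08 lower in Mut with the same smallest exact permutation p of 0.1.

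**Figure D4:**
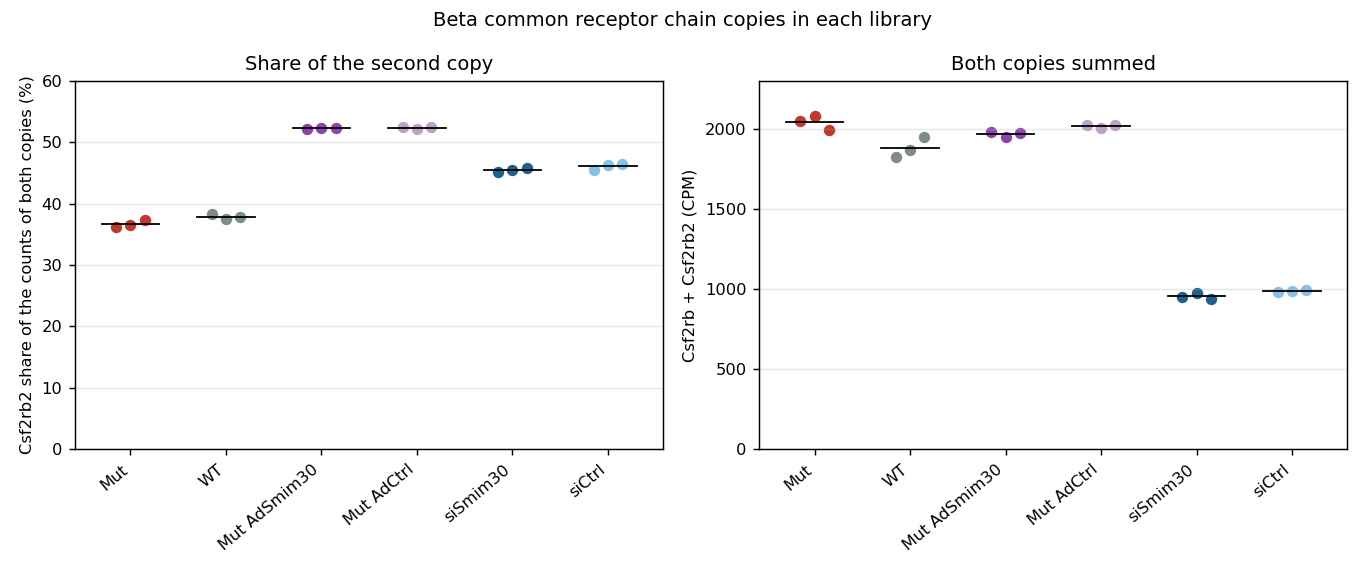
Share of Csf2rb2 in the counts of Csf2rb and Csf2rb2 (left, percent) and the CPM of both copies summed (right) in each library, with bars at group means. The share was 52.2 to 52.5% in all 6 virus-treated libraries and 36.1 to 38.3% in the 6 Mut and WT libraries without virus, while the sum in IC-21, on average 955 CPM with siSmim30 and 989 CPM with siCtrl, was below that of all peritoneal libraries.

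IC-21 cells with control siRNA were set against WT macrophages to describe the line. Ligand genes were higher in the line and receptor genes lower. All 7 genes were called, 3 higher and 4 lower, where 80.3% of 14066 genes tested were called, 40.1% higher and 40.2% lower. The line, the transfection, the culture time and the part of the experiment cannot be told apart here, and the WT libraries also serve the comparison with Mut. Csf1 was at 1034, 918 and 940 CPM with siCtrl against 57.2, 65.5 and 66.4 CPM in WT, 9.35-fold higher after scaling (log2 fold change 3.23, SE 0.056, edgeR adjusted p = 3.88e-38). Csf2 was 7.78-fold and Csf3 2.46-fold higher in the line. Csf2ra was at 81.5, 85.4 and 93.5 CPM with siCtrl against 412, 420 and 404 CPM in WT, with a log2 fold change of -2.95 (adjusted p = 8.14e-42), the largest fall of the receptor genes. The log2 fold change was -2.66 for Csf3r, -1.84 for Csf2rb and -1.39 for Csf1r. Scaling matters here, since with library totals alone the median of all genes was 0.72 and not 0.01 on the log2 scale, and Csf1r then had a log2 fold change of -0.68, still lower and called.

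**Figure D5:**
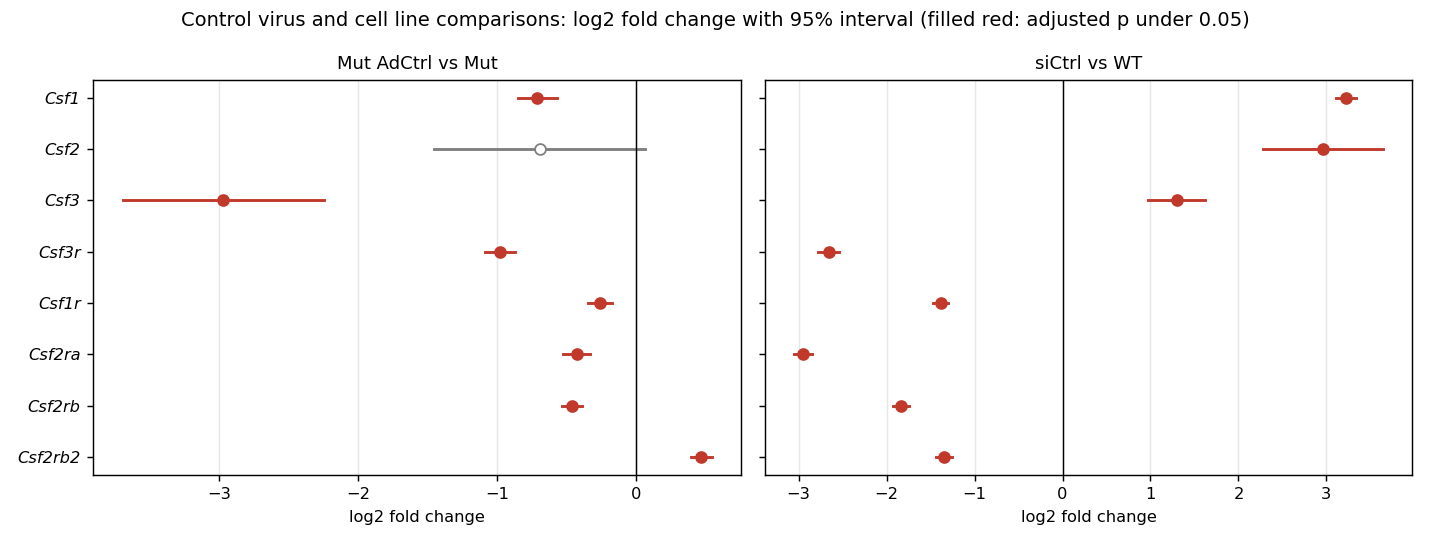
Log2 fold change (x axis, a different range in each panel) with 95% intervals of the 7 genes and of Csf2rb2 in Mut AdCtrl against Mut and in siCtrl against WT; filled red symbols have an edgeR adjusted p under 0.05. In the left panel Csf2rb2 is the only gene to the right of 0, and in the right panel the 3 ligand genes lie to the right of 0 and the receptor genes to the left of it.

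Downstream lists are read against a comparison in which 40.2% of all genes tested were lower with siCtrl than in WT and 40.1% higher, with a median log2 fold change of 0.01. Of 21 signalling genes of the CSF1 receptor 17 were lower with siCtrl than in WT and 0 higher, with a median log2 fold change of -1.14. The kinase gene Src was at 2.17 ± 0.726 CPM with siCtrl and 286 ± 17.5 CPM in WT. Stat5a was at 9.51 ± 0.595 CPM with siCtrl and 87.9 ± 1.51 CPM in WT, and 13 of 15 JAK-STAT genes were lower, with a median of -1.47. All 11 GM-CSF-responsive genes tested were lower, among them Inhba at 0 to 0.0834 CPM with siCtrl and 163 to 167 CPM in WT. Of the transcription factor genes, 10 of 12 were lower. Cebpa, a factor of myeloid fate known to act on the CSF3R gene, was at 4.04 ± 0.197 CPM with siCtrl and 127 ± 11.8 CPM in WT. Of 14 factors of AU-rich messages 10 were lower with siCtrl and 3 higher, and Zfp36 was at 71.2 ± 6.34 CPM with siCtrl and 119 ± 8.49 CPM in WT.

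Related ligands were at or near the floor throughout. Il34, the other ligand of CSF1R, had 0 to 8 read pairs in a library, Il5 had 0 to 1, Il5ra had 0 to 11 and Il3 had 0 in all 18. Il3ra, the alpha chain of the interleukin 3 receptor, was at 67.1 to 78.0 CPM in Mut and 74.5 to 79.1 CPM in WT. It had 0 counts in all 6 IC-21 libraries. Against the floor of 3 counts in the library where that is highest, its level was at least 177-fold lower with siCtrl than in WT. Promoter windows of RefSeq (GRCm38.p6), of 250 bases before to 50 after a start, were used for 5 of the 8 genes. They were searched on both strands for the kappaB consensus, TGANTCA, TTGCNNAA, TTCNNNGAA, GAGGAAGT and TATAAA. The Csf1 window held a kappaB consensus, as did 4.51% of 32851 windows. The Csf2rb2 window held TTCNNNGAA, as did 8.30%, and GAGGAAGT, as did 3.20%. The Csf2 window held TTGCNNAA, as did 10.8%, but it lay wholly upstream of the gene's annotated span given above and so does not hold that start. The windows of Csf2ra and Csf3r held none of these motifs, which says only that these letters are not in them.

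The genes whose log2 CPM was most like that of a member over the 12 peritoneal libraries are given as a description, since these libraries share the split between cells with and without virus. For Csf1 they were Il1b, Trim25 and Ncf1, with Pearson's r of 0.976 to 0.977. For Csf2 they were Kcna3, Tnf and Tent2, at 0.878 to 0.897, lower than for any other member. For Csf2rb they were Mtpn, Rtp4 and Ccl3 at 0.992 to 0.993, and for Csf3r Cd274, Ifi47 and Gch1 at 0.993 to 0.994. For Csf1r they were Sec61a1, Slc39a6 and Slc48a1 at 0.978 to 0.982, and for Csf2ra Noc2l, Rps6ka4 and Tbc1d9b at 0.985. Csf3 was left out because a library held fewer than 3 counts.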

How the data were processed

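The authors deposited raw counts per gene, in which featureCounts 2.0.3 assigned read pairs to exons of the GENCODE M25 annotation (GRCm38) with the reverse strand setting, per the file headers. Trimming with fastp, checks with FastQC, alignment with HISAT2 and DESeq2 are named in the submitters' processing notes. Library preparation was strand-specific, per the labels' protocols. No flag for multi-mapping reads is in the headers. Symbols came from GENCODE M21 by identifier for 55141 of 55401 genes, and Smim30 was taken to be 2610001J05Rik from general knowledge. No count fell on mitochondrial genes.

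Groups came from sample titles. Each comparison was fitted to its own libraries (6, or 12 for interaction terms) with edgeR 4.0.16 in R 4.3.3: filterByExpr, TMM scaling, the robust quasi-likelihood F test and Benjamini-Hochberg adjustment over all genes tested, called at 0.05. CPM and RPKM used library totals, and fold changes used TMM. The copies' log2 ratio was tested by exact permutation. Alternatives were scaling by RLE or by library totals alone, leaving out the filter, keeping genes with 1 CPM in at least 3 libraries, the tools DESeq2 1.42.0 and limma-voom (limma 3.58.1), all 18 libraries, replicate number as a block, no ribosomal RNA genes, leaving out each library, and, added after the data were seen, the Csf2rb copies as 1 gene. Members and lists were chosen with earlier results of these data known. Named list genes were the up to 4 called members with the largest change, not all of which are given. Lists came from general knowledge, and 1 gene of the JAK-STAT list is not reported here. Counts of 12500 genes were simulated for Mut against WT, with changes planted in a small part of those averaging above 1 CPM. Of these changes, 66% of 1.5-fold and 88% of 2-fold ones were recovered. The chi-square per gene between replicates was 1.67 to 5.24, so no 2 libraries agreed within sampling noise.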

Additional observations from a re-analysis of the deposited data

Results flagged for a closer look

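The log2 fold change of Csf1 in Mut against WT (0.43) exceeded that in siSmim30 against siCtrl (0.12) by 0.30 in a test of the difference itself (edgeR quasi-likelihood adjusted p = 0.0272, 3 libraries in each of 4 groups). Csf1 was at 78.1 to 91.1 CPM in Mut against 57.2 to 66.4 CPM in WT, and at 1026 to 1056 CPM with siSmim30 against 918 to 1034 CPM with siCtrl. The adjusted p ran from 0.0034 to 0.14 over 22 alternatives.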

How the results depend on the processing

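Of 963 single-gene values under alternative settings, 933 stayed on the same side of the threshold, 20 lost a call and 10 gained one. Of values called in either fit, 0 reversed direction. Uncalled values could change sign, as that of Csf3 in Mut against WT did, with -0.08 to 0.39 on the log2 scale. The numbers of genes called were 788 in Mut against WT, against 1198 in a fit of all 18 libraries, 181 with the overexpression virus, against 68 with DESeq2 and 87 with all 18 libraries, and 472 with siSmim30, against 291 and 263. Leaving out a library gave 469 to 957, 66 to 453 and 309 to 422 genes in these comparisons, and 267 to 571 for the mutation effect minus the siRNA effect, against 372. Of the 7 genes, it gave 0 to 1 called with the overexpression virus, 1 to 3 with siSmim30, 0 to 1 for the effect difference and 0 to 1 for the effect sum. For the difference, no filter gave 2 and limma-voom 0. Replicate numbers did not pair the libraries (correlations of same-numbered Mut and WT deviations 0.05, -0.04 and 0.09, and of siSmim30 and siCtrl deviations 0.03, -0.02 and 0.00). With replicate number as a block Csf3 was not called with siSmim30 (log2 fold change 1.18, edgeR adjusted p = 0.125), and 253 genes were called with the overexpression virus. The causes of these changes were not tested. Depth limits Csf2 and Csf3, which had at most 64 read pairs in every peritoneal library.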
